A study of Caenorhabditis elegans with 2 samples.

Results

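The heat shock protein (hsp) and J-domain (dnj) genes of Caenorhabditis elegans were examined for peaks of the tagged C2H2 zinc finger protein F33H1.4 at their promoters. Members were all protein-coding genes of the WBcel235 annotation (Ensembl release 115) whose name is hsp- or dnj- followed by a number. They were 51 of 19973 protein-coding genes, 22 of them hsp and 29 dnj genes. The 51 genes carry 49 distinct Ensembl names, because hsp-16.1 and hsp-16.48 each name a pair of genes. The second copy of each pair has the RefSeq symbol hsp-16.11 or hsp-16.49 at the same position, and those symbols are used here.

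The data are peak lists from chromatin immunoprecipitation followed by sequencing (ChIP-seq), in which fragments of DNA bound by a protein are pulled down with an antibody and sequenced. Both samples were whole young adults of strain RW12303, 62.5 hours old, which carried a CRISPR insertion that fused F33H1.4 on chromosome II to the tags TY1, EGFP and 3xFLAG. The larvae had been synchronised by starvation at the L1 stage after bleaching, and the labels list no stress treatment. The precipitation was directed at green fluorescent protein. Chromatin was sonicated to fragments of 200 to 800 bp. The series held 1 group of 2 biological replicates, with no untagged or stressed group, and no control library was analysed here. Cell types cannot be told apart in whole animals. The sequencing depth is unknown from peak lists.

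Chaperones bind unfolded or partly folded proteins. Hsp70 proteins hold and release their clients in a cycle driven by ATP, J-domain proteins bring clients and stimulate that cycle, and nucleotide exchange factors such as the Hsp110 proteins reset it. Hsp90 works on late folding steps, Hsp60 forms a closed folding chamber, and small heat shock proteins hold clients without ATP. Cytosol, mitochondria and endoplasmic reticulum each have their own set. Some chaperone genes are expressed in all conditions, while others, such as the hsp-16 genes and hsp-70, are known in C. elegans as nearly silent genes that heat induces strongly through the transcription factor HSF-1. HSF-1 binds heat shock elements, which are built from inverted GAA units. Members were therefore sorted into constitutive cytosolic, mitochondrial, endoplasmic reticulum, stress-induced and other small heat shock genes, and the remaining dnj genes formed a class of other J-domain genes.

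For each gene the strongest summit, the point of highest signal in a peak, was taken from 1000 bp upstream to 200 bp downstream of any 5' end of its protein-coding transcripts. It was taken from the authors' thresholded list of the series, which was made from both replicates, and from each replicate's own thresholded list. The lists held 3250, 2219 and 2733 peaks for the series, replicate 1 and replicate 2. The signal of a peak is the authors' own value and carries no scale that would let lists be compared, and is read here as a rank or percentile within a list. Lists of different lengths give different percentiles for the same peak, and a shift between lists is no change in binding.

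A summit stood in the promoter window of 19 of the 51 chaperone genes, or 37.3% (exact binomial 95% interval 24.1 to 51.9, which covers counting error only). Of all protein-coding genes 12.8% had one. By replicate, 16 of the 51 had a summit in replicate 1, where 9.95% of all genes had one, and 18 had a summit in replicate 2, against 12.0%. The series list and both replicates shared 16 of the genes. The genes dnj-10 and hsp-3 had a summit in the series and replicate 2 lists only, and dnj-11 in the series list only. The 19 comprised 7 hsp and 12 dnj genes, and no peak was shared between members. A peak could still be shared with a gene outside the family. At 10 of the 19 another coding gene's 5' end was nearer to the summit.

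The classes differed in how many members had a summit. All 6 constitutive cytosolic genes had one in the series list and in each replicate (the exact binomial 95% interval begins at 54.1%). Of the 5 mitochondrial genes 3 had one in the series list, 2 in replicate 1 and 3 in replicate 2. Of the 7 endoplasmic reticulum genes 4 had one in the series list, 3 in replicate 1 and 4 in replicate 2. None of the 7 stress-induced genes and none of the 7 other small heat shock genes had a summit in any of these lists, where the interval for 0 of 7 reaches 41.0%. The classes hold only genes named hsp- or dnj-, so chaperone genes with other names fall outside these counts. Among the 19 other J-domain genes 6 had one in the series list and 5 in each replicate. With classes this small, the intervals of the mitochondrial genes (14.7 to 94.7%) and the endoplasmic reticulum genes (18.4 to 90.1%) overlap those of every other class. These intervals take genes as independent, and genes are not replicates, so they are no test between classes. A count of 0 of 7 does not set a class apart from the 12.8% of all genes.

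**Figure D1:**
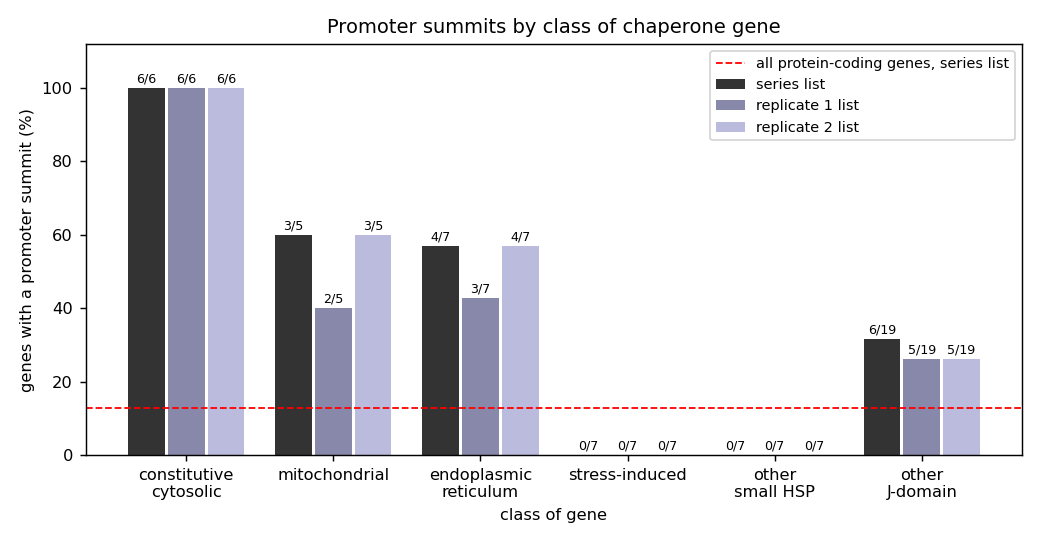
Share of genes with a promoter summit (%, vertical axis) in each class of chaperone gene (horizontal axis), for the series list, the replicate 1 list and the replicate 2 list, with the count above each bar and the share of all protein-coding genes in the series list (12.8%) as a dashed line. The constitutive cytosolic class reached 6 of 6 in each list, and the stress-induced and other small heat shock (HSP) classes 0 of 7.

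The strongest summit of all chaperone genes lay at hsp-110, which encodes the cytosolic Hsp110 protein. Its signal was 3922.4 in the series list, rank 11 of 3250, with 1579.8 in replicate 1 and 2363.3 in replicate 2. It lay above the 99th percentile of each list, at 99.7, 99.6 and 99.7. In the series list the peak covered chrIII:8446479-8447376 (ce11, the same build as WBcel235). It was 898 bp wide there, against a median of 288 bp over the 19 peaks. In replicates 1 and 2 it was 463 and 469 bp wide. Its summit was 256 bp upstream of hsp-110 and 188 bp upstream of rpn-3, a proteasome subunit gene on the other strand, so rpn-3 was the nearer coding gene. The summit lay 70 bp from the 5' end of the non-coding RNA C30C11.14.

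Hsp90 and its co-operating Hsp70 had weaker summits. At hsp-90, the cytosolic Hsp90 gene, the signal was 571.7 in the series list (rank 607), 253.8 in replicate 1 and 323 in replicate 2. That summit, in the peak chrV:14685623-14685920, lay in an intron of hsp-90, 378 bp upstream of a downstream 5' end and 864 bp downstream of the outermost one. The 5' end of C47E8.4, a homolog of FAM50, was nearer at 297 bp. At hsp-1, which encodes the constitutive cytosolic Hsp70, the signal was 334.7 (rank 935), with 138.9 in replicate 1 and 200.1 in replicate 2. Its summit, in chrIV:17278435-17278682, was 393 bp upstream of hsp-1, and no other coding 5' end was nearer than 1029 bp, though the non-coding RNA F26D10.23 began 153 bp from the summit. Both genes therefore ranked well below hsp-110 in all 3 lists.

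The class also holds J-domain partners of the cytosolic Hsp70. The signal at dnj-13, a DNAJB-type gene, was 595.1 in the series list (rank 585), 289.5 in replicate 1 and 358.8 in replicate 2. Its window held a pair of summits of similar strength, and the replicate 2 value came from the other one. The summit in chrII:11545338-11545615 was 228 bp upstream of dnj-13 and inside an intron of dhgd-1. It also lay in exons annotated to the non-coding RNA F54D5.22, a 5' end of which was 9 bp away. The other summit, 807 bp upstream with signal 576.8, was only 66 bp from F54D5.9. In replicate 2 the summit near dnj-13 had a signal of 305.8 and the one near F54D5.9 had 358.8, while in replicate 1 they had 289.5 and 223.9, so the order of the pair differed between replicates. The summit nearer to dnj-13 was present in every list.

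The remaining genes of the class were the DNAJA-type dnj-19 and dnj-12. At dnj-19 the signal was 484.9 (rank 704), with 234.9 in replicate 1 and 251.8 in replicate 2. Its summit, in chrV:5505106-5505370, was 380 bp upstream of dnj-19 but 16 bp from the 5' end of the nuclear hormone receptor gene nhr-47. At dnj-12 the signal was 223.1 (rank 1252), the lowest of the class, with 74.5 in replicate 1 and 151.9 in replicate 2. The dnj-12 summit was 71 bp upstream of its own gene, with mtx-1, a metaxin gene, 421 bp away on the other strand. In replicate 1 it stood at the 30.4th percentile and in replicate 2 at the 58.8th, the widest gap between replicates in the class.

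The sequences under the summits of 4 constitutive cytosolic genes are shown because each summit of that class had an inverted heat shock element unit close by. Each run holds 101 bases centred on the series summit, 5' to 3' on the strand of the gene named, from the RefSeq sequence of WBcel235. Capitals mark the heat shock element units GAANNTTC and TTCNNGAA and, in hsp-110, also GCGAGACC on the other strand, a word described with the motifs.
hsp-110: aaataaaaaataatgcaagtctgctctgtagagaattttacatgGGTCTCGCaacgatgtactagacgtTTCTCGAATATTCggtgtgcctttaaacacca
hsp-90: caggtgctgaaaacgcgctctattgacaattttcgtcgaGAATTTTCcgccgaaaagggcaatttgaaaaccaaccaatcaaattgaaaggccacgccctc
hsp-1: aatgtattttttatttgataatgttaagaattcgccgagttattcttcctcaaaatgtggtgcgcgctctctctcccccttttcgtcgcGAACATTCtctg
dnj-13: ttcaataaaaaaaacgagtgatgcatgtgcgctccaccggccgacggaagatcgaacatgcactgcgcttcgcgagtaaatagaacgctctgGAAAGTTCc
The runs cover chrIII:8447115-8447215, chrV:14685732-14685832, chrIV:17278516-17278616 and chrII:11545423-11545523. In hsp-110 a TTCNNGAA and a GAANNTTC overlap in 1 run of alternating units, while hsp-90, hsp-1 and dnj-13 each show a single GAANNTTC.

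The letters GAANNTTC stood within 50 bp of the summit at 6 of the 19 chaperone genes with a peak, and these were the 6 constitutive cytosolic genes. None of the other 13 had it there. Of the 2011 promoter summits of the series list other than these 19, the unit was within 50 bp at 114, or 5.67%. Windows of the same size 300 bp from those summits had it in 7.58%. Distances from the summit to the centre of the nearest unit were 7.5 bp at hsp-90, 27.5 bp at hsp-110, 29.5 bp at dnj-12, 42.5 bp at hsp-1 and 45.5 bp at dnj-13 and dnj-19. The next nearest units were 69.5 bp from the summit at hsp-60, 87.5 bp at dnj-10, 94.5 bp at dnj-1 and 110.5 bp at hsp-6. The units of dnj-13 and dnj-19 thus only just fell inside the window. With windows of 100 bp to each side the count was 9 of 19, against 14.0% of other promoter summits. The inverse spacing TTCNNGAA was within 50 bp at hsp-110 and dnj-12, or 2 of 19, against 3.68%. Both strands were searched. A match gives the letters only, and HSF-1 binding was not measured here.

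**Figure D2:**
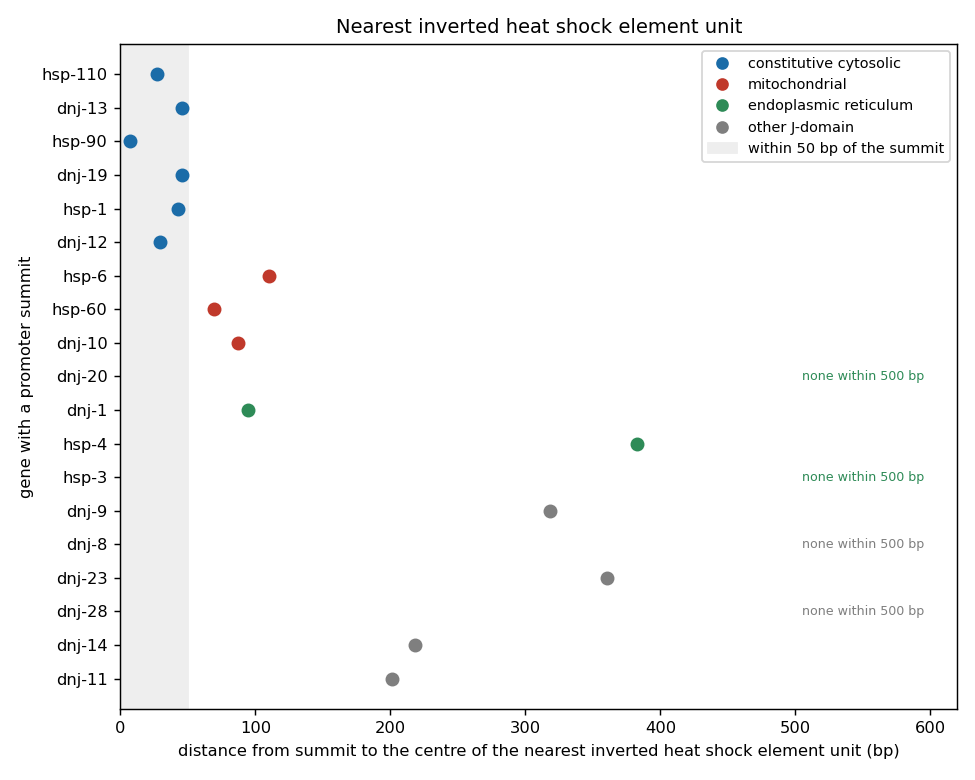
Distance in bp (horizontal axis) from the series summit to the centre of the nearest GAANNTTC unit for each of the 19 chaperone genes with a summit (vertical axis), coloured by class, with the first 50 bp shaded. The 6 constitutive cytosolic genes lie between 7.5 and 45.5 bp, and the nearest of the other genes is hsp-60 at 69.5 bp.

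Of the mitochondrial genes, hsp-6 and hsp-60 had strong summits. At hsp-6, which encodes the mitochondrial Hsp70, the signal was 1622.6 in the series list (rank 136), 637.5 in replicate 1 and 980.4 in replicate 2. At hsp-60, the mitochondrial chaperonin gene, it was 858.7 (rank 399), with 394.2 in replicate 1 and 463.6 in replicate 2. These were the strongest summits of the 51 genes after that of hsp-110. Both genes are widely used as reporters of the mitochondrial unfolded protein response in C. elegans.

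Each lay in a promoter shared with another gene. The hsp-6 summit, in chrV:4826952-4827335, was 409 bp upstream of hsp-6 and 191 bp from C37H5.5, a homolog of nucleolar complex protein 3. It also lay in exons of the non-coding RNAs C37H5.15 and C37H5.16, which are annotated on opposite strands. The hsp-60 summit, in chrIII:1618920-1619271, was 624 bp upstream of hsp-60 and 189 bp from Y22D7AL.10, which RefSeq describes as the 10 kDa mitochondrial heat shock protein, the lid of the Hsp60 chamber. That gene is no member by name. The shared region thus separates both parts of the same chaperonin.

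The third mitochondrial gene with a summit was dnj-10, the J-domain partner of the mitochondrial Hsp70, and its peak was weak. The signal was 89.8 in the series list (rank 2633 of 3250) and 65.2 in replicate 2, with no thresholded peak in replicate 1. In the unthresholded list of replicate 1 the signal at dnj-10 was 33.1. The summit, in chrIII:8630875-8631214, was 120 bp upstream of dnj-10, its own nearest gene. The genes hsp-75, which encodes the mitochondrial Hsp90 TRAP1, and dnj-21, a subunit of the import motor of the inner membrane, had no thresholded summit. Their unthresholded signals in the series list were 46.6 and 50.2.

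In the endoplasmic reticulum class the summits at dnj-20, dnj-1 and hsp-4 were weaker than those of hsp-6 and hsp-60. All were above the median signal of the series list, 163.14. At dnj-20, a homolog of the lumenal co-chaperone DNAJB11, the signal was 524.2 (rank 658), with 208.9 in replicate 1 and 316 in replicate 2. At dnj-1, a J-domain protein of the membrane, it was 520.8 (rank 664), with 199.7 and 320.3. At hsp-4, a BiP gene that is the usual reporter of the unfolded protein response of the endoplasmic reticulum, it was 408.6 (rank 820), with 187.5 and 222.6. Each of the 3 stood between the 67th and the 80th percentile in every list.

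Their positions differed. The dnj-20 summit, in chrII:9624340-9624627, was 300 bp upstream of dnj-20 and 137 bp from ZK1307.8, which encodes the beta subunit of glucosidase 2, a glycoprotein processing enzyme of the same organelle. The dnj-1 summit, in chrIV:11298211-11298519, was 675 bp upstream of dnj-1 and 109 bp from B0035.15. The hsp-4 summit, in chrII:7353088-7353347, was 587 bp upstream of hsp-4, with no other coding 5' end within 3194 bp.

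The other BiP gene, hsp-3, had the weakest summit of all 19. Its signal was 79.7 in the series list (rank 2839) and 53.1 in replicate 2. The summit, in chrX:6091974-6092313, was 20 bp upstream of hsp-3 in the series list and 18 bp upstream in replicate 2. In the unthresholded list of replicate 1 the strongest region of the window was a different one, 709 bp upstream, with a signal of 23.5. The pair of BiP genes thus differed in signal and in the position of the summit. No thresholded summit was found at dnj-7, dnj-27 and dnj-29, which are related to DNAJC3, DNAJC10 and SEC63. Of these, dnj-29 came closest, with an unthresholded series signal of 78.9. Its signal was close to the 79.7 of hsp-3, but its score was 191 where that of hsp-3 was 1000, and the thresholded lists hold no score below 830.

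The summits of hsp-6, dnj-20, dnj-8 and hsp-4 are shown because the first 3 hold a word that recurs at F33H1.4 summits elsewhere, while hsp-4 holds its shorter core. Capitals mark AAAGGCGC and GCGAGACC. The core GAGACC in hsp-4 is in lower case.
hsp-6: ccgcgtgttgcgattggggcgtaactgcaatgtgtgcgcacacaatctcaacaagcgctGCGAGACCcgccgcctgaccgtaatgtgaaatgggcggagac
dnj-20: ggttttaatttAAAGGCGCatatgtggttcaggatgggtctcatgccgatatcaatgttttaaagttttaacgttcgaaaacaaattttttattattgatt
dnj-8: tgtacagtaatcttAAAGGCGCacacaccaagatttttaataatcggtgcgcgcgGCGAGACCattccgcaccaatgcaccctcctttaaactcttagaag
hsp-4: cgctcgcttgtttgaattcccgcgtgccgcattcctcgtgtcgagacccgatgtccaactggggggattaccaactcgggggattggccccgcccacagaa
The runs cover chrV:4827119-4827219, chrII:9624426-9624526, chrII:6597670-6597770 and chrII:7353182-7353282 of ce11, each on the strand of the gene named. The dnj-8 run holds both words.

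Among the other J-domain genes the 6 summits were at dnj-9, dnj-8, dnj-23, dnj-28, dnj-14 and dnj-11. The highest signal was at dnj-9, with 657.4 in the series list (rank 530), 338 in replicate 1 and 320 in replicate 2. It stood at the 82.0th percentile in replicate 1 and at the 76.4th in replicate 2. The dnj-9 summit, in chrII:4851691-4851964, was 222 bp upstream of its own 5' end. At dnj-8, a homolog of DNAJC16, the signal was 594.8 (rank 586), with 188.3 in replicate 1 and 398.5 in replicate 2. The dnj-8 summit, in chrII:6597587-6597847, lay in an intron of dnj-8, 222 bp upstream of an inner 5' end and 360 bp downstream of the outermost.

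Signals at dnj-23, dnj-28 and dnj-14 were similar to one another. At dnj-23, a homolog of the histone co-chaperone DNAJC9, the signal was 588.4 (rank 588), with 203.3 in replicate 1 and 386.1 in replicate 2. At dnj-28 it was 537.9 (rank 645), with 192.9 and 346. At dnj-14, a homolog of the synaptic vesicle protein DNAJC5, it was 467.5 (rank 730), with 204.6 and 259.3. Each of these summits lay between the 67th and the 82nd percentile in every list.

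The dnj-23 summit was 500 bp upstream of that gene and 434 bp from T24H10.4, a homolog of transmembrane protein 53. The dnj-28 summit was 139 bp upstream of its own gene. The dnj-14 summit was 331 bp upstream of dnj-14 and 200 bp from glit-1, a gliotactin homolog, within an exon of the non-coding RNA DL2.2.

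The peak at dnj-11, a homolog of the ribosome-associated DNAJC2, was weak and met the threshold only in the series list. Its signal there was 94.2 (rank 2539) with a score of 983. In the unthresholded lists of replicates 1 and 2 the signal was 32.2 and 61.5, with scores of 78 and 454 and summits 381 and 287 bp upstream. The series summit was 274 bp upstream of dnj-11 and 197 bp from F38A5.2, a gene with a TraB domain.

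The remaining 13 genes of the class had no thresholded summit. They were dnj-2, dnj-3, dnj-4, dnj-5, dnj-15, dnj-16, dnj-17, dnj-18, dnj-22, dnj-24, dnj-25, dnj-26 and dnj-30. Of these, dnj-17 and dnj-24 had no region in any unthresholded list either. The other 11 had unthresholded signals in the series list from 21.2 at dnj-2 to 67.6 at dnj-15.

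None of the stress-induced members had a summit at threshold. The small heat shock genes hsp-16.2 and hsp-16.41 start on opposite strands of a short shared region, and in each list the strongest unthresholded region was the same for both genes. Its signal was 43.1 in the series list, the 82.1st percentile of 51479 unthresholded regions, with 26.2 in replicate 1 and 24.7 in replicate 2. In the series list its summit lay 336 bp upstream of hsp-16.2 and 115 bp inside hsp-16.41, and in replicate 1 it lay 198 bp inside hsp-16.41. In replicate 2 the summit lay between the pair, 189 bp upstream of hsp-16.2 and 32 bp upstream of hsp-16.41, so the lists did not place it at 1 site. At hsp-70, the heat-induced cytosolic Hsp70 gene, the signal was 37.7 in the series list, 15.9 in replicate 1 and 20.2 in replicate 2. In the series list both regions were weaker than the summit of hsp-3 (79.7).

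The genes hsp-16.1, hsp-16.11, hsp-16.48 and hsp-16.49 had no region in any list, thresholded or not. They lie in an inverted duplication on chromosome V, and the 300 bases around the 5' ends of hsp-16.48 and hsp-16.49 are identical at 300 of 300 positions. Of the stretches of 50 bases in their promoter windows, all at hsp-16.48 and hsp-16.49, 96.4% at hsp-16.1 and 93.1% at hsp-16.11 occur elsewhere in the genome too. In the other 47 genes the share was at most 13.0%, with a median of 0.0%. Reads from repeated stretches cannot be placed at 1 site. How such reads were treated is not given in the sources used here, and their part in the absence of peaks at these 4 genes was not tested. The windows of hsp-16.2, hsp-16.41 and hsp-70 are among the 47.

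The regions upstream of hsp-16.2 and hsp-16.48 are shown because they hold the heat shock element units of the induced genes and yet no thresholded summit. Each run holds the 225 bases before the annotated 5' end, on the strand of the gene, and capitals mark GAANNTTC and TTCNNGAA.
hsp-16.2: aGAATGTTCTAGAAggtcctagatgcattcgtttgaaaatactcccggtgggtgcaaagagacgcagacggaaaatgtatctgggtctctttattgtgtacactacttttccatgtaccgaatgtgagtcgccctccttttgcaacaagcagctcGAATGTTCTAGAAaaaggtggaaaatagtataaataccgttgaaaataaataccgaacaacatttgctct
hsp-16.48: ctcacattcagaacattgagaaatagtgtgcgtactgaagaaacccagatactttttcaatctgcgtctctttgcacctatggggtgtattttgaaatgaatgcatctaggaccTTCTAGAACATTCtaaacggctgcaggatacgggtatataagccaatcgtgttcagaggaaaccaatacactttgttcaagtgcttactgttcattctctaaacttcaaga
The runs cover chrV:1804958-1805182 and chrV:9087906-9088130 of ce11. In both, the units overlap as in the hsp-110 run. From 250 bp upstream to 50 bp downstream of the outermost 5' end, GAANNTTC occurred in 7 of 7 stress-induced genes, none of which had a thresholded summit, and in 5 of 6 constitutive cytosolic genes. It occurred in 20 of the 51 chaperone genes and in 18.5% of all 19973 such promoters. TTCNNGAA occurred in 7 of 7 stress-induced genes, 4 of 6 constitutive cytosolic genes, 15 of the 51 chaperone genes and 18.9% of all promoters. The 7 stress-induced genes are not 7 separate promoters. The pairs hsp-16.2 and hsp-16.41, hsp-16.1 and hsp-16.48, and hsp-16.11 and hsp-16.49 each share a region upstream of both genes. The latter pairs are copies in the inverted duplication, and most of their sequence occurs elsewhere in the genome too.

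The other small heat shock members were hsp-12.1, hsp-12.2, hsp-12.3, hsp-12.6, hsp-17, hsp-25 and hsp-43. None had a thresholded summit, and hsp-12.1, hsp-12.3 and hsp-12.6 had no region in any unthresholded list. In the unthresholded series list the signal was 28.5 at hsp-43, 26.7 at hsp-25, 23.9 at hsp-12.2 and 2.86 at hsp-17. The first 3 values lie between the 44th and the 57th percentile of that list. None of the 7 promoters of this class held GAANNTTC, which 18.5% of all promoters held. TTCNNGAA, held by 18.9% of all promoters, was in 1 of the 7, at hsp-17.

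Of the 32 chaperone genes without a thresholded summit, 21 had a region in the unthresholded series list, which brought the total to 40 of 51. That list holds a region in the promoter window of 46.8% of all genes, so such a region says little by itself. Their scores reached at most 548. In 10 of the 32 no list held a region, and dnj-27 had one in replicate 2 alone.

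All 19 summits lay upstream of the 5' end to which they were assigned, as 94.9% did over the 2547 genes with a summit. The distance was 20 to 675 bp with a median of 300 bp, against a median of 247 bp over those 2547 genes. The median signal was 524.2, or the 79.8th percentile of the list, where the 2547 genes had medians of 273.4 and 66.9.

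Counting protein-coding genes only, another gene's 5' end was nearer to the summit at 10 of the 19 genes. The member's own was nearest at 9, or 47.4%. Over all genes with a summit the share was 70.5%. At dnj-13 and hsp-1, both among the 9, the 5' end of a non-coding RNA was nearer still, at 9 and 153 bp. Counted against all genes, 9 of 51 had a summit nearest to themselves and 9.23% of all genes had a summit in their window that was nearest to them. The 10 were hsp-110, hsp-90, dnj-19, hsp-6, hsp-60, dnj-20, dnj-1, dnj-23, dnj-14 and dnj-11. In all 10 the nearer gene lay on the other strand and the summit was upstream of both 5' ends. This was so for 613 of the 752 genes, or 81.5%, whose summit was nearer to another gene. At hsp-90 the 5' end counted was an inner one, and the summit lay 864 bp downstream of the outermost. Which gene of such a pair, if either, responds to the protein cannot be told apart from these data. The 3 highest signals among the members, at hsp-110, hsp-6 and hsp-60, were all of this kind.

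**Figure D3:**
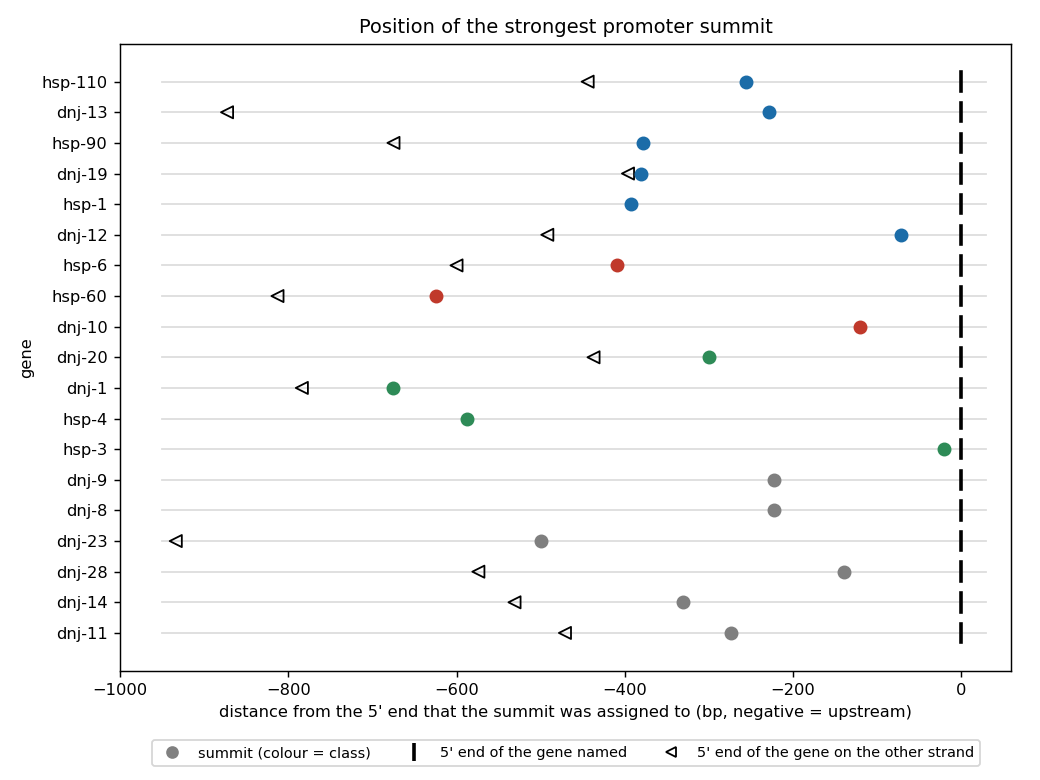
Position of the strongest summit (dot; blue constitutive cytosolic, red mitochondrial, green endoplasmic reticulum, grey other J-domain genes) in bp from the 5' end to which it was assigned (bar at 0, negative values upstream) for 19 chaperone genes. Open triangles mark the nearest coding 5' end on the other strand where one lay within 1000 bp. At dnj-19 the summit lies 16 bp from that other end, and at hsp-4 no other coding end is in range.

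Of the 16 chaperone genes with a summit in both replicates, hsp-110, hsp-6 and hsp-60 held places 1 to 3 by signal in both lists, and hsp-4, hsp-1 and dnj-12 held places 14 to 16. The order between them differed. The summit of dnj-8 was in place 13 of the 16 in replicate 1 and in place 4 in replicate 2. In the opposite direction, dnj-9 was in place 4 in replicate 1 and in place 10 in replicate 2, and dnj-19 in places 7 and 13. The percentile within the list was higher in replicate 2 for 12 of the 16 and higher in replicate 1 for 4, which were hsp-60, dnj-9, dnj-13 and dnj-19. That split was not counted over all genes, so it is not read as a trait of the chaperone genes. The deposited signal was higher in replicate 2 at 15 of the 16, and at 1745 of all 1869 genes with a summit in both replicates. The value of dnj-13 in replicate 2 came from its other summit. The genes without a thresholded summit in replicate 1, dnj-10, hsp-3 and dnj-11, were the 3 with the lowest signal in the series list.

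**Figure D4:**
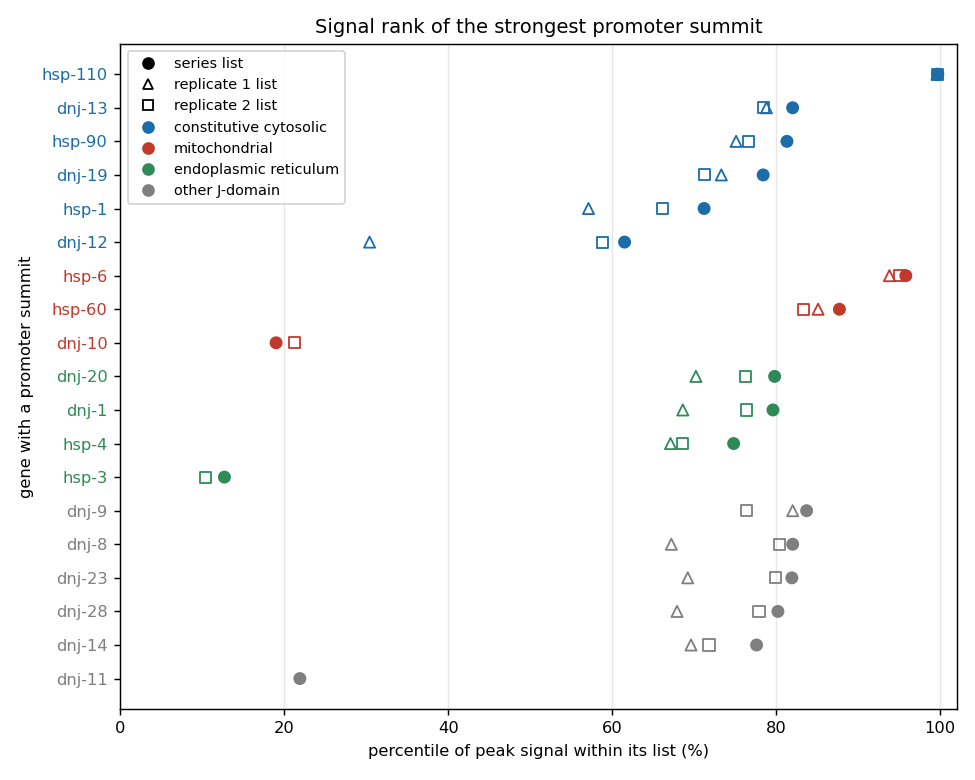
Percentile of peak signal within its list (%, horizontal axis) for 19 chaperone genes (vertical axis), in the series list (filled circles), replicate 1 (triangles) and replicate 2 (squares), coloured by class. hsp-110 stands above 99 in all lists, and dnj-10, dnj-11 and hsp-3 stand below 22.

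**Figure D5:**
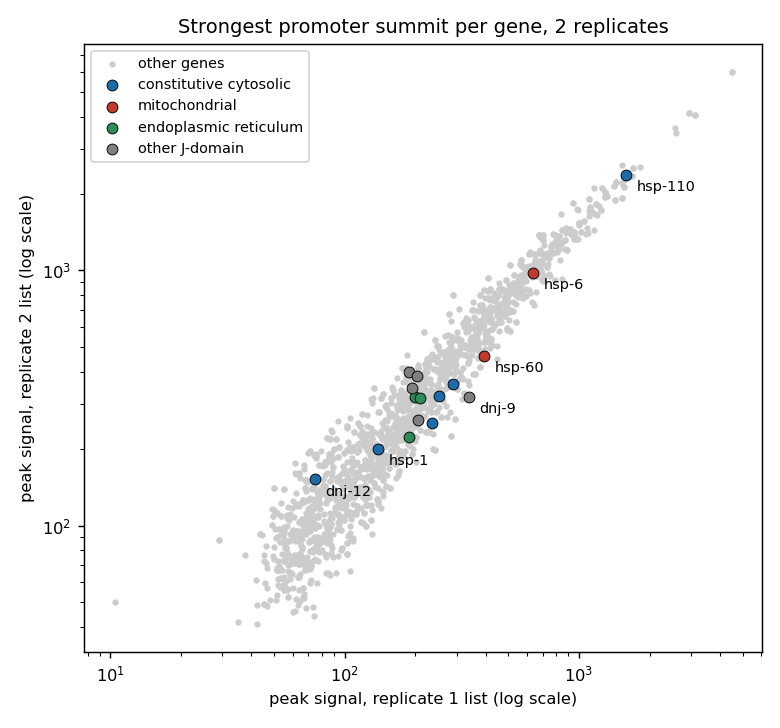
Peak signal of the strongest promoter summit of each gene in replicate 1 (horizontal, log scale) against replicate 2 (vertical, log scale), for 1869 genes with a summit in both, with the 16 chaperone genes coloured by class. The chaperone genes lie within the cloud of other genes, with hsp-110 near its upper end.

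Words of 8 letters were then picked at the 2011 promoter summits other than the strongest ones of the 19 chaperone genes. The choice thus did not use those 19 summits, to which the second summit in the dnj-13 window does not belong. The 3 picked were AAAGGCGC, GCGAGACC and CTACAGTA, searched on both strands within 50 bp of the summit. At least 1 of them stood at 28.5% of the other summits and in 1.91% of windows 300 bp away. The words, and the shorter ones below, were picked at these same other summits. Their shares there, and the gap to windows 300 bp away, are thus not independent of the choice. Of the 19 chaperone summits 4 had one, at hsp-110, hsp-6, dnj-8 and dnj-20. AAAGGCGC was at dnj-8 and dnj-20, against 15.3% of other summits. GCGAGACC was at hsp-110, hsp-6 and dnj-8, against 13.8%. CTACAGTA was at none, against 7.16%.

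With words of 6 letters, GAGACC was at 6 of 19 chaperone summits, namely hsp-110, hsp-6, hsp-4, dnj-8, dnj-20 and dnj-23, against 27.2% of other summits. GGCGCA was at 3 of 19, against 22.8%, and CCTTTA at 5 of 19, against 19.8%. Apart from hsp-110, no constitutive cytosolic gene had any of these 6 words within 50 bp. Within 50 bp, the summits at hsp-1, hsp-90, dnj-12, dnj-13 and dnj-19 thus carried the heat shock element unit without the 6 words picked here. At hsp-110 both the unit and picked words were present. Within 100 bp, dnj-13 also had GGCGCA and dnj-12 had CCTTTA. The share of other summits without any of the 6 words was not counted, so their absence does not set these genes apart.

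Motifs linked to the unfolded protein response of the endoplasmic reticulum were counted in the same windows. TGACGTGG, the letters bound by XBP-1, was at none of the 19 summits and at 0.249% of other promoter summits. CCACG was at 4 of 19, against 21.7%, and CCAAT at 7 of 19, against 15.6%. Windows 300 bp from those other summits held CCACG in 8.65% and CCAAT in 18.7%. Among the endoplasmic reticulum genes, CCAAT lay within 50 bp of the summits of hsp-3 and hsp-4. Outside that class it was at dnj-8, dnj-19, hsp-6, hsp-60 and hsp-90. CCACG was at dnj-12, dnj-23, dnj-28 and hsp-90, none of them in the endoplasmic reticulum class.

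The chaperone genes with a summit were spread over all 6 chromosomes, with 6 of 7 members on chromosome II, where 13.5% of all genes had a summit, and 2 of 5 on X. On X, where only 43 of 2731 genes (1.57%) had a summit in the series list, the members were hsp-3 and dnj-14. On V, where 7.23% of all genes had a summit, 3 of 13 members had one, and 6 of the 10 without were the hsp-16 genes.

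Among 31 co-chaperones and stress regulators chosen by function, 19 had a promoter summit in the series list, 14 in replicate 1 and 17 in replicate 2. The shares of all genes in these lists were 12.8%, 9.95% and 12.0%. The list was chosen with earlier results of these data known, so its count is a description. The strongest was at atfs-1, the transcription factor that drives the mitochondrial unfolded protein response and induces hsp-6 and hsp-60. The atfs-1 signal was 1447.0 in the series list (rank 170), 611.7 in replicate 1 and 841.4 in replicate 2, with the summit 569 bp upstream and no nearer coding gene. The prefoldin gene pfd-1 followed with 1347.9, where F01G4.6 was nearer to the summit. Next came daf-41, the p23 co-chaperone of Hsp90, with 502.3 (nearer to toc-1), and bag-1, an Hsp70 nucleotide exchange factor, with 430.0. The mitochondrial response regulator ubl-5 had 323.0, and ahsa-1, which activates Hsp90, had 301.8 (nearer to C01G10.7).

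No summit was found at 12 of the 31, which were atf-6, chn-1, dve-1, haf-1, hsf-1, pek-1, pfd-2, pfd-4, pph-5, stc-1, unc-23 and xbp-1. The heat shock regulator hsf-1 was thus without a thresholded summit. Its binding partner and inhibitor hsb-1 had one with a signal of 222.5 (rank 1255 of 3250), nearer to let-99. In the endoplasmic reticulum the sensor gene ire-1 had a signal of 141.5 in the series list and 98.2 in replicate 2. It had no thresholded summit in replicate 1. The sensors atf-6 and pek-1 and the effector xbp-1 had no summit. Both atf-6 and pek-1 lie on X, where only 1.57% of all genes had one in the series list.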

How the data were processed

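Peak lists from 2 biological replicates of 1 group were used. Per the labels, they are on build ce11, and the deposited notes derive a replicate's lists from that replicate's alignments and the series lists from those of both replicates. Neither aligner nor peak caller is given in the sources used here. For each peak the authors deposited a score, a signal and a q-value as −log10. The deposited score was at least 830 in every thresholded list. Signal ranked peaks within a list, and the −log10 values were not used further. Depth is unknown, so no precision per peak can be given.

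Genes came from Ensembl release 115 and sequence from the RefSeq genome, both WBcel235, with 29314 distinct 5' ends of protein-coding transcripts. Coordinates are 1-based. Promoter windows spanned 1000 bp before and 200 bp after a 5' end. Members, classes, motifs and lists were chosen with earlier results of these data known. Text names each member with a thresholded summit, the other members by class, and the 6 co-chaperone genes with the highest signal; hsb-1 and ire-1 were named after their values were seen. Of 33 names in that list, 31 were in the annotation. The words and their 100 bp alternative were added after seeing the data. With 1 group no test over samples exists, so counts stand beside those of all genes. Alternatives were other lists, thresholds, overlaps and windows. The assignment of summits to genes was tested on simulated data. Versions were Python 3.11.15, scipy 1.17.1, numpy 2.4.6, matplotlib 3.10.9 and pandas 2.3.3.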

Additional observations from a re-analysis of the deposited data

How the results depend on the processing

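The unthresholded list gave summits at 40 members (32 nearest to their own), with 5 mitochondrial, 3 stress-induced, 4 other small heat shock and 17 other J-domain genes, so the counts of 0 in the stress-induced and small heat shock classes hold for thresholded peaks. A window of 500 bp upstream to 100 bp downstream left 2 endoplasmic reticulum genes, without dnj-1 and hsp-4, and 16 members. Requiring 50% overlap with peaks of both replicates left 11 co-chaperones and regulators. With either replicate's list alone, which stands for leaving the other out, the ranges were 16 to 18 members, 7 to 9 nearest to their own, 6 to 6 constitutive cytosolic, 2 to 3 mitochondrial, 3 to 4 endoplasmic reticulum, 5 to 5 other J-domain, 0 to 0 stress-induced and 0 to 0 other small heat shock genes, and 14 to 17 co-chaperones and regulators. The constitutive cytosolic count was 6 under all 9 alternatives run for it. Widening the motif window to 100 bp raised TTCNNGAA from 2 to 5 member summits, while its share of other promoter summits rose from 3.68% to 11.9%. No paired analysis was possible because the series holds 1 group. Peaks below the threshold of a list with unknown depth limit any statement that a gene is unbound.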
